A study of Mus musculus with 72 samples.

Results

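The 9 genes described here, Prox1, C1ql2, Trpc6, Tdo2, Fibcd1, Wfs1, Spink8, Bok and Zbtb20, are markers of the cell fields of the hippocampus, and they were taken by name from the 53715 genes counted in each library. All 9 were found, and all 9 passed the filter on low counts in hippocampus. RNA-seq was performed on the hippocampi (taken from both hemispheres), the cerebral cortex and the cerebellum of 12 male mice aged 18 weeks. Of these, 6 were Gnb5-/- (KO), homozygous for an allele without exon 3 of Gnb5 in a C57BL/6J background, and 6 were Gnb5+/+ (WT), which gives 36 brain libraries in 6 groups of 6. The loss is constitutive and in every tissue, in a line recovered from frozen sperm. Libraries carry the number of the mouse, so the 3 regions of a number come from 1 animal, while KO and WT mice are different animals. Gnb5 encodes the beta subunit of G proteins that binds the R7 family of RGS proteins and speeds the shut-off of inhibitory G-protein signalling in neurons.

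The hippocampus is built from fields with separate principal neurons. Granule cells of the dentate gyrus send mossy fibres to the pyramidal cells of CA3, which in turn project to the pyramidal cells of CA1. Each field is recognised in tissue by genes that its neurons express strongly. Prox1, C1ql2, Trpc6 and Tdo2 are used as markers of granule cells, Fibcd1, Wfs1 and Spink8 of CA1, and Bok of CA3, whereas Zbtb20 marks hippocampal neurons more broadly. In whole tissue, fewer cells of a type and less RNA per cell cannot be told apart.

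Promoter windows from RefSeq (GRCm38.p6, 250 bases before to 50 after the annotated start) were matched for 8 of the 9 members, and not for Spink8. The windows of Prox1, Fibcd1 and Wfs1 are shown because Prox1 is the identity factor of granule cells and because Fibcd1 and Wfs1, both CA1 genes, have the smallest and the largest genotype difference of the members. Capitals mark TATAAA or its reverse complement TTTATA, searched on both strands. The Prox1 window lies at chr1:190170778-190171077 on the minus strand, the Fibcd1 window at chr2:31845956-31846255 on the minus strand and the Wfs1 window at chr5:36988933-36989232 on the minus strand.
Prox1: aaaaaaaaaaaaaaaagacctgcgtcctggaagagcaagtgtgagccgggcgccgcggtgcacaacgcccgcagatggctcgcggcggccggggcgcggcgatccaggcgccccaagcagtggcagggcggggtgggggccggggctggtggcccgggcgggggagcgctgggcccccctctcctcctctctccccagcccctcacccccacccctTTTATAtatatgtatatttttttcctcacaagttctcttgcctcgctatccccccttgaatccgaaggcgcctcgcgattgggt
Fibcd1: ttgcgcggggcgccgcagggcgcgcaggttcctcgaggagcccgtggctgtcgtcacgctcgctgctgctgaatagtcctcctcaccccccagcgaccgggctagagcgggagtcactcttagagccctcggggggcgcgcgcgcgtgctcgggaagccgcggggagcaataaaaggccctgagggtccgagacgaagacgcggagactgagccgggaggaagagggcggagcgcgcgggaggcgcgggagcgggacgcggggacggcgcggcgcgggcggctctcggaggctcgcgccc
Wfs1: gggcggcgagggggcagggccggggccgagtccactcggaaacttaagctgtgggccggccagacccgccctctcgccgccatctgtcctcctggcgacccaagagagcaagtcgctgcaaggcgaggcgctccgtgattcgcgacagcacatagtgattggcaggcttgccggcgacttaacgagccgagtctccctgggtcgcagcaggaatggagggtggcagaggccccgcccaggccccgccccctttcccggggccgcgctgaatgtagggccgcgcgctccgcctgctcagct

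The Prox1 window held 1 match, read as TTTATA, beginning 34 bases before the start, and the windows of Fibcd1 and Wfs1 held 0. The other member with a match was Tdo2, 229 bases before its start. A match was present in 13.6% of the 32851 windows of this length. CG dinucleotides numbered 46 in the Fibcd1 window, 30 in that of Wfs1 and 25 in that of Prox1, against a median of 7 over all windows, whereas Tdo2 had 4 and Zbtb20 had 3. Prox1 has a second annotated start, whose window held 14 CG dinucleotides and 0 matches.

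The brain libraries held 29204390 to 48807435 reads on genes, and the hippocampal ones at least 35449343. Levels are given as CPM, the counts of a gene per 1000000 reads on genes, after TMM normalization over the 36 libraries. Gnb5 followed the labels: its level was 103 ± 4.76 CPM in WT hippocampus and 13.4 ± 0.816 in KO hippocampus (SD, n = 6 each), 135 ± 8.99 and 15.6 ± 2.28 in cortex, and 145 ± 7.63 and 20.1 ± 1.38 in cerebellum. No hippocampal library stood apart, with correlations to the group median of 0.992 to 0.996 on the log2 scale. Outside hippocampus 3 KO libraries did. The cortical library of mouse 14 had a correlation of 0.873 and 32.5% of genes over 2-fold from its group median, the cerebellar library of mouse 12 had 0.904 and 24.8%, and the cortical library of mouse 3 had 0.971 and 4.46%. Their reads outside annotated genes made up 6.86%, 8.02% and 8.32%, against 11.7% to 16.97% in the others, so the cortical and cerebellar comparisons are given with and without them.

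In hippocampus, none of the 9 members differed between genotypes at an adjusted p below 0.05 in edgeR's quasi-likelihood test, among 29 of 17588 genes called (0.165% of genes, 15 higher and 14 lower in KO). Wfs1 came nearest. It was higher by 0.44 on the log2 scale in KO mice, a fold of 1.36. The remaining 8 members lay between -0.16 (Tdo2) and 0.24 (Bok). The median over the 9 was 0.03, beside 0.0002 over all genes tested, and 6 of the 9 were above 0. At an unadjusted p below 0.05 there was 1 member, Wfs1, where 7.70% of all genes (1355) passed. No member separated the 2 genotypes without overlap, which 122 genes did (0.694%).

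**Figure D1:**
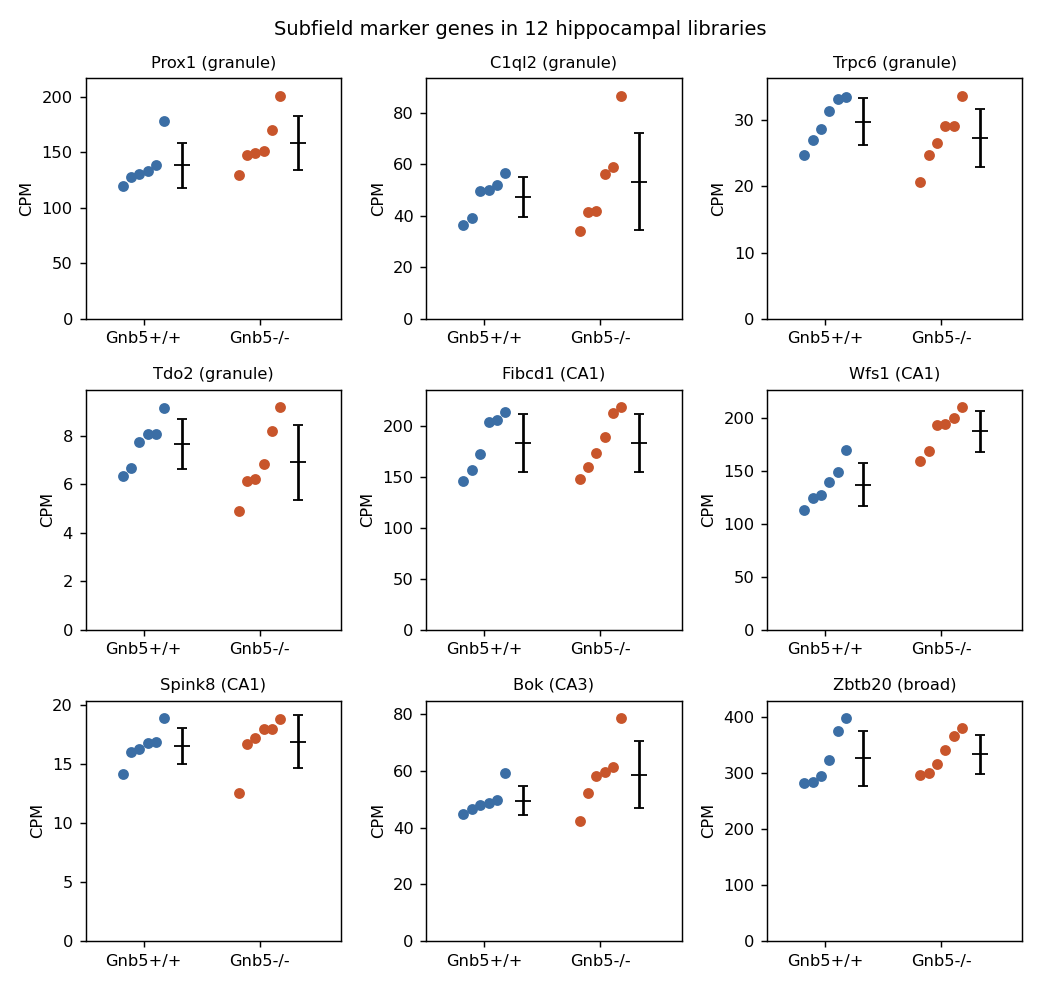
CPM of each member in the 6 Gnb5+/+ (blue) and 6 Gnb5-/- (orange) hippocampal libraries, 1 point per mouse, sorted within a group, with the mean and SD in black and every axis from 0. In the panel of Wfs1 the KO points run from 159 to 210 and the WT points from 113 to 170, while the points of Fibcd1 cover nearly the same range in both genotypes.

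Prox1, the homeobox transcription factor that sets and holds granule cell identity, lies on the minus strand at chr1:190118035-190170714 of GRCm38. Its WT hippocampal libraries ran from 120 CPM through a median of 132 to 178, and its KO libraries from 130 through 150 to 201. The groups overlapped over most of this range, with mouse 8 alone at the top of WT and mouse 5 at the top of KO. KO exceeded WT by 0.19 ± 0.10 on the log2 scale (± SE, as for all fold changes here; adjusted p = 0.705, edgeR).

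C1ql2, a secreted C1q-like protein of mossy fibre synapses (chr1:120340582-120343174), ran from 36.3 CPM through 49.9 to 56.6 in WT and from 34.1 through 49.1 to 86.5 in KO. The medians of the genotypes were close, and the KO range was wider through mouse 5, its highest library. The fold change of 0.16 ± 0.19 on the log2 scale (adjusted p = 0.882, edgeR) became -0.03 without that library.

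Trpc6, a cation channel opened by diacylglycerol, and Tdo2, the dioxygenase that opens the tryptophan ring at the head of the kynurenine pathway, had lower means in KO than in WT. Trpc6 (chr9:8544142-8680741) ran from 24.8 CPM through 30.0 to 33.5 in WT and from 20.7 through 27.8 to 33.6 in KO, a log2 fold change of -0.13 ± 0.10 (adjusted p = 0.811, edgeR). Tdo2 (chr3:81957090-81976202), the least abundant member, ran from 6.35 CPM through 7.92 to 9.17 in WT and from 4.90 through 6.53 to 9.18 in KO, a change of -0.16 ± 0.14 (adjusted p = 0.838, edgeR). Mouse 5 was the highest KO library for all 4 granule cell genes. The granule cell members thus did not share a sign, with 2 above 0 and 2 below, and none passed the test.

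Among the CA1 genes, Wfs1 encodes wolframin, a membrane protein of the endoplasmic reticulum that is mutated in Wolfram syndrome. It lies at chr5:36966104-36989205. The 6 WT hippocampi measured 113 (mouse 17), 124 (mouse 18), 127 (mouse 15), 140 (mouse 8), 149 (mouse 7) and 170 CPM (mouse 16). The 6 KO hippocampi measured 159 (mouse 3), 168 (mouse 10), 193 (mouse 1), 194 (mouse 12), 200 (mouse 14) and 210 CPM (mouse 5). The groups overlapped only through WT mouse 16, which lay above KO mice 3 and 10, and all 6 KO libraries were above the WT mean.

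The means of Wfs1 were 137 ± 20.3 CPM in WT and 187 ± 19.5 in KO (SD, n = 6 each). By edgeR the difference was 0.44 ± 0.09 on the log2 scale (unadjusted p = 2.63e-04, adjusted p = 0.101), which ranked 45 among the 17588 genes. A two-sided exact permutation test over the 924 divisions of the 12 mice gave p = 0.00649 for this gene alone, where 0.00216 is the smallest possible. The call depended on the tool and on 1 library. DESeq2's Wald test gave the same fold change and an adjusted p of 0.00107, and edgeR without WT mouse 16 gave 0.51 with an adjusted p of 0.0234, whereas the other single omissions gave 0.0655 to 0.234.

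Fibcd1, a membrane receptor that binds acetylated groups of sugars (chr2:31813290-31846005), ran from 146 CPM through 188 to 214 in WT and from 148 through 181 to 218 in KO. Spink8, a Kazal-type inhibitor of serine proteases (chr9:109812280-109826633), ran from 14.2 through 16.5 to 18.8 CPM in WT and from 12.5 through 17.5 to 18.8 in KO. Both genes covered almost the same interval in the 2 genotypes. Their log2 fold changes were -0.01 ± 0.11 for Fibcd1 (adjusted p = 0.997, edgeR) and 0.03 ± 0.09 for Spink8 (adjusted p = 0.964, edgeR). Of the 3 CA1 genes, Wfs1 alone had a fold change over 4 times its standard error. Trpc6 and Spink8 share chromosome 9 with Gnb5, at 66.7 Mb and 34.5 Mb from it.

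Bok, a member of the BCL2 family that is strong in CA3 pyramidal cells (chr1:93685660-93695764), ran from 44.7 CPM through 48.2 to 59.2 in WT and from 42.4 through 58.8 to 78.5 in KO. Of the KO libraries, 5 lay above the WT mean and that of mouse 14 lay below every WT library. The difference was 0.24 ± 0.11 on the log2 scale (adjusted p = 0.663, edgeR). Zbtb20, a zinc finger transcription factor required for the formation of CA1 (chr16:42875881-43642602), ran from 282 CPM through 308 to 397 in WT and from 297 through 328 to 380 in KO, a change of 0.02 ± 0.09 (adjusted p = 0.969, edgeR). The KO libraries of Zbtb20 lay inside the WT range.

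Per kilobase of merged exons, which makes genes comparable, the order in WT hippocampus was Fibcd1 (38.6 ± 6.00 CPM per kb), Wfs1 (36.2 ± 5.35), Bok (26.9 ± 2.76), C1ql2 (23.7 ± 3.91), Spink8 (20.1 ± 1.84), Prox1 (16.5 ± 2.46), Zbtb20 (10.6 ± 1.60), Trpc6 (5.88 ± 0.698) and Tdo2 (1.98 ± 0.266; SD, n = 6). Each of the first 6 overlapped its neighbour in the range of its 6 libraries, whereas Prox1, Zbtb20, Trpc6 and Tdo2 did not overlap one another in sequence. The length used matters for Trpc6 and Bok, whose levels with the longest transcript alone were 9.13 and 33.7 CPM per kb. Zbtb20 has the most CPM of the members but 30730 bases of merged exons.

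WT hippocampus was compared with the other regions of the same mice, in fits without a term for the mouse. The members were chosen with earlier results of these data known, so this is no independent check of the marker label. Whole regions also cannot show in which field a gene is expressed. Against cortex, 8 of 9 members were higher in hippocampus at an adjusted p below 0.05 in edgeR, where 25.5% of genes were. Tdo2 was higher by 4.78 on the log2 scale, Spink8 by 4.30, C1ql2 by 4.23, Fibcd1 by 3.58, Prox1 by 3.19, Zbtb20 by 1.76, Trpc6 by 1.11 and Bok by 0.52. Wfs1 went the other way. It was lower in hippocampus than in cortex by 0.41 ± 0.09 (adjusted p = 0.00209, edgeR), at 137 ± 20.3 against 181 ± 22.6 CPM, and so does not mark hippocampus against cortex in these libraries.

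Against cerebellum, all 9 were higher in WT hippocampus, where 38.9% of genes were. Trpc6 was higher by 4.16 on the log2 scale and Bok by 2.37. Fibcd1 and C1ql2 were higher by 9.38 and 7.53, against cerebellar libraries that held 7 to 19 and 8 to 13 of their reads. Spink8 had 0 to 5 reads in the WT cerebellar libraries and 624 to 697 in the WT hippocampal ones. Wfs1 was higher by 1.54, Prox1 by 0.88 and Zbtb20 by 0.66.

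Tdo2 had the smallest difference from cerebellum, 0.35 ± 0.15 (adjusted p = 0.0485, edgeR), and lost the call with no filter on low counts (adjusted p = 0.0681). Its WT cerebellar libraries ran from 4.22 through 5.65 to 7.93 CPM and overlapped those of hippocampus, while cortex had 0.142 to 0.374. Prox1, too, was well expressed in cerebellum, at 75.2 ± 16.7 CPM against 15.04 ± 1.05 in cortex. The granule cell members therefore fell into a pair with much cerebellar RNA (Prox1, Tdo2) and a pair with little (C1ql2 at 0.255 ± 0.0471 CPM, Trpc6 at 1.65 ± 0.588).

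**Figure D2:**
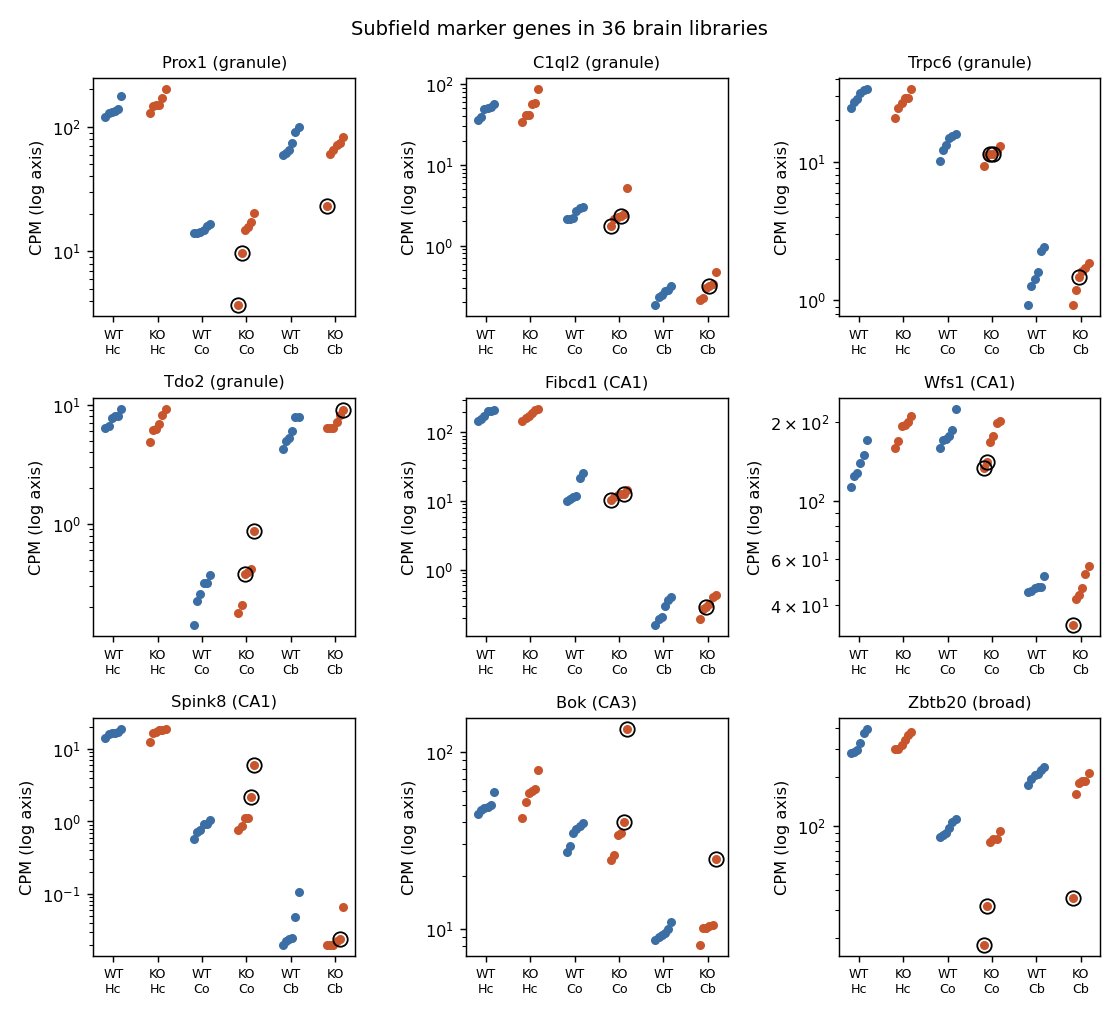
CPM of each member on a log axis in the 36 brain libraries, by genotype (blue WT, orange KO) and region (Hc hippocampus, Co cortex, Cb cerebellum), 1 point per mouse, with black rings on the 3 libraries that stand apart and levels under 0.02 CPM drawn at 0.02. Most members are highest in hippocampus, Wfs1 is higher in WT cortex than in WT hippocampus, and Tdo2 and Prox1 stay high in cerebellum. The ringed points lie far below the rest of their group for Zbtb20. For Prox1 those of mouse 14 in cortex and mouse 12 in cerebellum do, while that of mouse 3 in cortex lies nearer, at 9.63 CPM.

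In cortex, 10 of 17967 genes differed between genotypes (0.0557%, edgeR) and none was a member. With all libraries the members' log2 fold changes ran from -0.56 (Zbtb20) to 1.35 (Spink8). The values of Zbtb20 and Spink8 rested largely on 2 libraries, those of mice 14 and 3. Without that of mouse 14 alone, Prox1 went from -0.13 to 0.05, Bok from 0.60 to -0.11 and Tdo2 from 0.61 to 0.22. The library of mouse 14 had 18.2 CPM of Zbtb20 and 3.69 of Prox1, against WT medians of 93.7 and 14.7, while it had 134 CPM of Bok and 5.97 of Spink8, against 35.6 and 0.840. The library of mouse 3 had 32.0 CPM of Zbtb20 and 2.15 of Spink8. Of the other members in the library of mouse 14, Tdo2 was at 0.867 CPM, the highest of the KO group. Fibcd1, C1ql2 and Wfs1 were at 10.3, 1.73 and 133 CPM, the lowest of that group. For Wfs1 the library of mouse 3 was next lowest, at 141 CPM, against a WT median of 174.

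Without the cortical libraries of mice 14 and 3, the fold changes of Prox1 and Bok turned sign, from -0.13 to 0.18 and from 0.60 to -0.22 on the log2 scale. That of Spink8 went from 1.35 to 0.22, that of Tdo2 from 0.61 to 0.13 and that of Zbtb20 from -0.56 to -0.18. None of the 9 was called, among 26 of 18269 genes that were. For Wfs1 the value was -0.07 ± 0.11 with all libraries (adjusted p = 0.696, edgeR) and 0.03 without the 2. The cortical library of mouse 12 had the highest C1ql2 of the region, 5.18 CPM against 1.73 to 2.46 in the other KO libraries, and the highest Prox1, 20.4 CPM, whereas of 10 other granule cell genes it was the highest of 12 cortical libraries for 2.

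In cerebellum, 14 of 17139 genes differed between genotypes (0.0817%, edgeR), and none of the 8 members tested was among them, Spink8 having too few reads. The library of mouse 12 had 35.7 CPM of Zbtb20 and 23.1 of Prox1, against WT medians of 207 and 69.8, and 24.7 CPM of Bok, against 9.36. These are the same directions as in the cortical library of mouse 14. Without it, the log2 fold change of Zbtb20 moved from -0.37 to -0.16, that of Prox1 from -0.26 to -0.09 and that of Bok from 0.38 to 0.04. Wfs1 was -0.04 ± 0.10 with all libraries and 0.03 without that library. In the fit without it, 0 of 8 members were among the 62 of 17255 genes called.

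The genotype effect was compared between regions as an interaction in edgeR, in a fit without a term for the mouse. No gene of 18676 was called between hippocampus and cortex (0%; 1337 had an unadjusted p below 0.05, and DESeq2 called 0 as well), and 4 of 18709 were called between hippocampus and cerebellum (0.0214%), none a member. The effect on Wfs1 was greater in hippocampus than in cortex by 0.52 ± 0.15 on the log2 scale (unadjusted p = 0.00183, adjusted p = 0.543, edgeR) and greater than in cerebellum by 0.48 ± 0.14 (unadjusted p = 0.00234, adjusted p = 0.706, edgeR). Without the libraries that stand apart these differences were 0.41 and 0.41. Both comparisons share the hippocampal libraries. In KO mice the mean of Wfs1 was 187 ± 19.5 CPM in hippocampus and 169 ± 28.4 in cortex, with overlapping ranges. Without the cortical libraries of mice 14 and 3 the cortical mean was 186 ± 16.6 CPM (SD, n = 4).

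**Figure D3:**
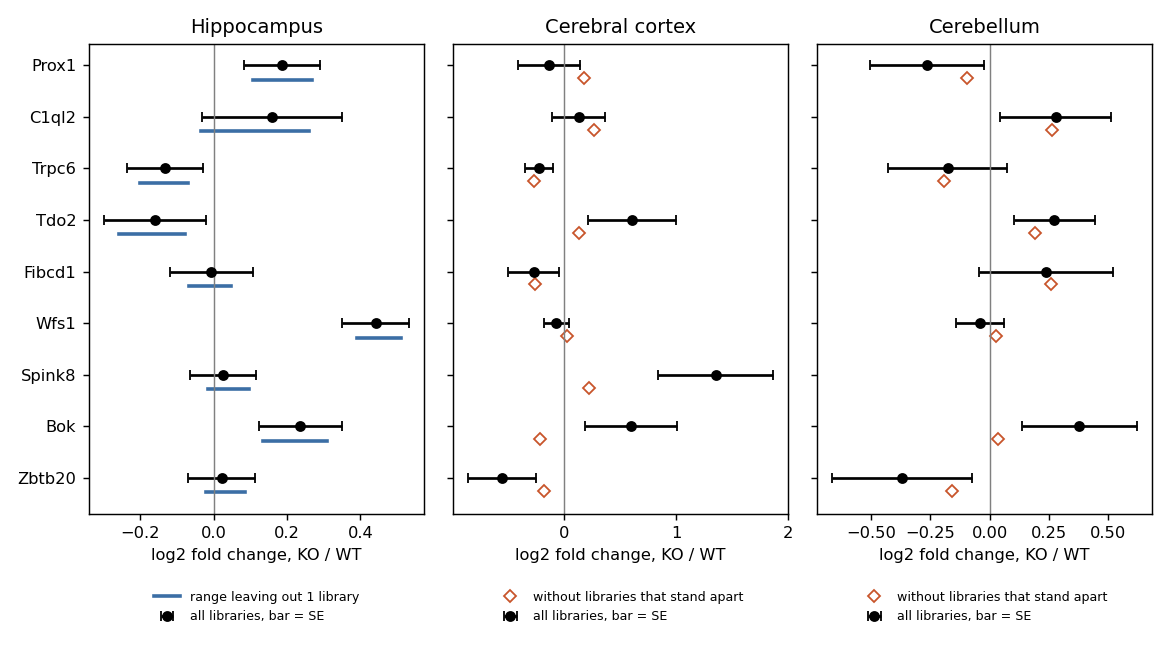
log2 fold change of each member, KO over WT, in hippocampus, cortex and cerebellum, from edgeR with its SE (black); blue lines span the values when 1 hippocampal library is left out, and open diamonds leave out the libraries that stand apart. In hippocampus Wfs1 keeps a value of 0.39 to 0.51, and in cortex Bok and Prox1 cross 0 without the libraries of mice 14 and 3.

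Other genes of the same fields were examined in 6 lists, none of them independent of earlier results of these data. Of 10 other granule cell genes, 0 were called and 8 had a fold change above 0, with a median of 0.11 on the log2 scale. The one with the smallest p was Dsp, which encodes desmoplakin, at 0.38 ± 0.15 (adjusted p = 0.582, edgeR). Of 7 other CA1 genes, 0 were called and 1 was above 0, with a median of -0.12. The one with the smallest p was Man1a, a mannosidase of the Golgi, at -0.14 ± 0.05 (adjusted p = 0.549, edgeR).

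The value of Wfs1 thus lay above those of all 7 other CA1 genes, which ran from -0.23 to 0.17. CA2 genes had a median of -0.07 (6 genes, smallest p for Pcp4, a calmodulin-binding peptide, at 0.17), other CA3 genes of -0.06 (8 genes, smallest p for Prss35 at -0.19), mossy cell genes of 0.02 (4 genes, smallest p for Csf2rb2 at 0.14) and newborn granule cell genes of 0.04 (6 genes, smallest p for the transcription factor Neurod1 at 0.09). None of these was called.

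Markers of other tissue and cell types were read beside these values, and their part in the members' values was not tested. Choroid plexus genes had a median fitted fold change of -1.92 (8 of 8 below 0, 0 called, smallest p for the folate receptor Folr1 at -2.20). Their summed level ran from 43.1 through a median of 97.0 to 1640 CPM in WT, the highest in mouse 7, and from 42.8 through 68.0 to 307 in KO, so the medians of the genotypes lay closer than the fitted values. For Folr1 the median was 0.676 CPM in WT and 0.409 in KO. Kl, at 29.1 and 32.4 CPM, was the only gene of the list with a higher median in KO. Astrocyte genes had a median of 0.13 (4 genes, 0 called, smallest p for the water channel Aqp4 at 0.20, and Gja1 at -0.03). Their summed level ran from 1422 to 1562 CPM in WT and from 1570 to 1671 in KO, a difference that was not tested. Slc1a3 was the largest part of the sum, at 780 ± 25.05 CPM in WT and 816 ± 41.4 in KO (adjusted p = 0.764, edgeR). The means lay furthest apart for Gfap, at 315 ± 54.9 CPM in WT and 378 ± 37.0 in KO (adjusted p = 0.604, edgeR). Oligodendrocyte genes had a median of -0.09 (5 genes, smallest p for Mobp at -0.24), microglia genes of -0.01 (4 genes, P2ry12 at -0.01) and endothelial genes of -0.09 (4 genes, Slco1c1 at -0.19). Genes of neighbouring tissue had medians of -0.08 for neocortex (6 genes, Lamp5 at 0.19), 0.01 for striatum (6 genes, Penk at 0.26), -0.07 for thalamus (5 genes, Prkcd at 0.47) and 0.04 for cerebellum (3 of 5 genes tested, Car8 at -0.08), with 0 called.

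**Figure D4:**
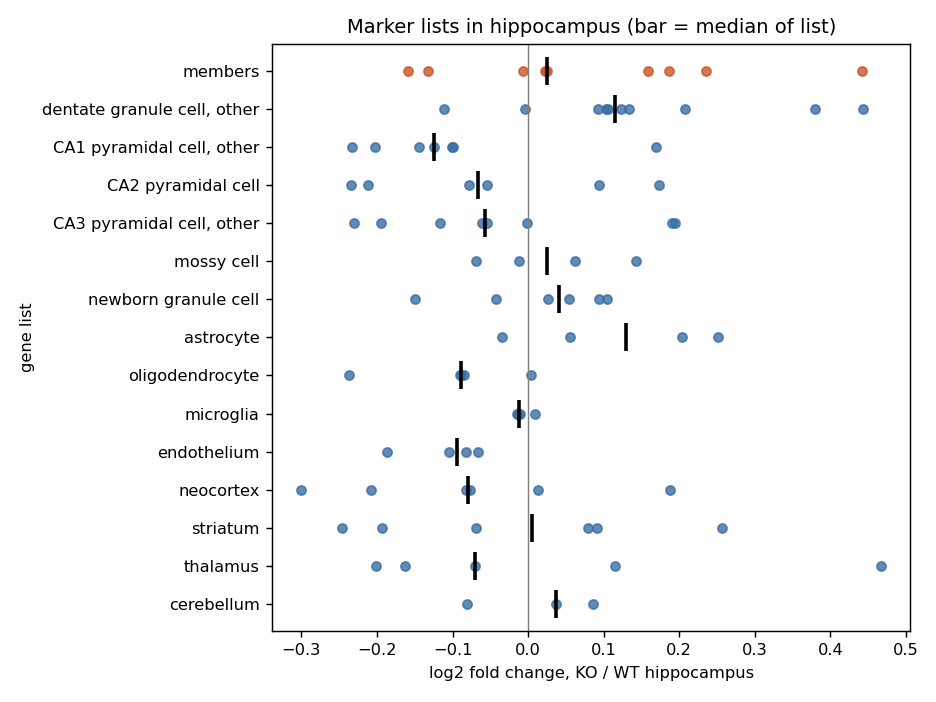
log2 fold change in hippocampus, KO over WT, of each gene in the marker lists (1 point per gene, members in orange, black bar at the median); the choroid plexus list, with values of -2.52 to -0.55, is left out for scale. Other granule cell genes lie mostly to the right of 0 and other CA1 genes to the left, and Wfs1, the rightmost member at 0.44, lies apart from the other CA1 genes.

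For each hippocampus, the log2 ratio of the summed CPM of the 4 granule cell members to that of the 3 CA1 members was taken. It was -0.60 ± 0.07 in WT, from -0.67 to -0.46, and -0.68 ± 0.26 in KO (SD, n = 6 each), from -0.996 in mouse 14 to -0.28 in mouse 5. The SD was larger in KO than in WT, a difference that was not tested. The CA1 sum holds Wfs1, whose mean was 137 CPM in WT and 187 in KO, beside 183 and 184 for Fibcd1. The ratio therefore carries the difference in Wfs1 and does not measure the fields alone. The log2 ratio of Wfs1 to Fibcd1 was -0.42 ± 0.41 in WT and 0.04 ± 0.32 in KO, with overlapping ranges.

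The members' covariation was described over the 12 hippocampal libraries after removing genotype means, and these points share their normalization and dissection. The 6 pairs of granule cell genes had Pearson r of 0.26 to 0.58, with a median of 0.50. The pairs with C1ql2 differed between genotypes: its r within WT was 0.10 with Prox1, -0.51 with Trpc6 and -0.02 with Tdo2, against 0.82, 0.69 and 0.69 within KO (n = 6 each), and these differences were not tested. Bok correlated with the 4 granule cell genes at 0.36 to 0.76, the highest with Trpc6. Within WT its r was 0.23 with Trpc6, -0.27 with C1ql2 and -0.01 with Prox1, against 0.98, 0.78 and 0.62 within KO. The pair of Bok with Tdo2 went the other way, at 0.67 within WT and 0.26 within KO. Mouse 5 was the highest KO library for C1ql2, Prox1, Trpc6, Tdo2 and Bok. For C1ql2 it held 86.5 CPM, against 34.1 to 59.0 in the other KO libraries. How far the values within KO rested on this library was not tested. Zbtb20 correlated with Prox1 at 0.73, at 0.71 within WT and 0.80 within KO. The 3 pairs of CA1 genes had r of -0.58 to 0.12, and the lowest was Fibcd1 with Wfs1, also negative within WT (-0.75) and within KO (-0.37) mice.

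**Figure D5:**
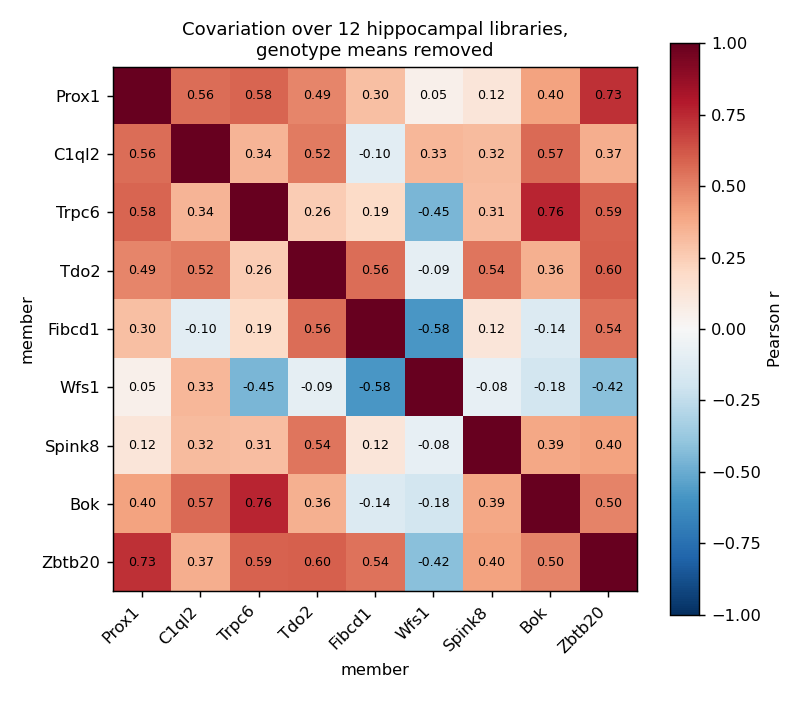
Pearson r between members over the 12 hippocampal libraries, on log2 CPM with genotype means removed (red positive, blue negative). Values among granule cell genes, Bok and Zbtb20 are positive over the 12 libraries together, though not for every pair within WT, and the column of Wfs1 holds mostly negative ones, down to -0.58 with Fibcd1.

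Over the same 12 libraries and 14777 genes of at least 1 CPM, the genes most like each member were listed by Pearson r. These are the highest values of a wide search over few libraries, and how high such values run by chance was not tested. For Prox1 they were Dgkh (0.94), Tmem131 (0.94) and Adcy1 (0.93), and for C1ql2 Vav3 (0.95), Stxbp6 (0.93) and Tnks1bp1 (0.92). For Trpc6 they were Ttf1 (0.91), Adat1 (0.91) and Amacr (0.90), and for Tdo2 Extl2 (0.92), Cenpb (0.90) and Gm26672 (0.89). The CA1 genes had Tbxa2r (0.90) and Fbxl17 (0.89) beside Fibcd1, Tecpr2 (0.90), Mlip (0.89) and March9 (0.88) beside Wfs1, and Cdc34 (0.92), Hebp1 (0.90) and Msrb2 (0.90) beside Spink8. Bok was most like St18 (0.94), Sec23ip (0.93) and Anxa6 (0.91), and Zbtb20 most like Dock9 (0.94), Slc24a2 (0.92) and Abl2 (0.92). No other member was among these genes, and Stxbp6 was the one gene that also stood in a marker list, that of granule cells.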

How the data were processed

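RNA was extracted from whole hippocampi, cortex and cerebellum and sequenced as stranded total RNA. Per the submitters' processing notes and the paper, the authors trimmed reads (cutadapt 1.8), aligned them to GRCm38 with STAR 2.5.3a and counted reads on the exons of Ensembl genes with HTSeq 0.9.1. The deposited values are raw counts per gene and library, 29204390 to 48807435 in total, and reads outside genes (6.86% to 16.97%) were left out of library sizes. Symbols and coordinates came from GENCODE M21. Counts were filtered (filterByExpr, minimum of 10 counts), normalized by TMM and tested with edgeR 4.0.16 (R 4.3.3), glmQLFit and glmQLFTest, over all genes within each region, with genotype alone as in the study's own model. The study tested that model with DESeq2's Wald test, which is an alternative here. Adjusted p-values are Benjamini-Hochberg over all genes tested. Region comparisons used WT libraries, and interactions used both regions and genotypes. These main fits had no term for the mouse, although the regions came from the same mice. The mouse as a block was an alternative. Single genes were compared in log2 CPM (prior count of 2) by two-sided exact permutation tests. Each SE was derived from the fold change and its F statistic, as their quotient after taking the root of F.

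In each list the gene of smallest adjusted p was named unless genes passed the test. The 3 most correlated genes were named for each member. A result for a gene that this rule selects is not reported here. The members and lists were chosen with earlier results of these data known. Same-numbered KO and WT libraries are different animals, so the main genotype model had no block. Fits were tested on simulated data. Alternatives were DESeq2 1.42.0, RLE factors, no filter, 10 counts in every library, a replicate block, prior count 0.5, longest transcripts and omission of single hippocampal libraries. Omission of the libraries that stand apart was chosen after seeing the data. Heart libraries were not used here.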

Additional observations from a re-analysis of the deposited data

Results flagged for a closer look

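In 11 of 52 groups of 6 libraries, 1 library lay far from the other 5 (the gap to its neighbour exceeded Dixon's critical share of the group's range), where chance gives about 1 in 20 groups. In hippocampus these were Prox1 at 178 CPM in WT mouse 8, the highest, Bok at 59.2 CPM in WT mouse 17, the highest, and Spink8 at 12.5 CPM in KO mouse 1, the lowest. Of the other 8, 6 were in the libraries that stand apart. The cortical library of KO mouse 14 was the highest of its group for Bok (134 CPM), Spink8 (5.97 CPM) and Tdo2 (0.867 CPM). The cerebellar library of KO mouse 12 was the lowest for Prox1 (23.1 CPM) and Zbtb20 (35.7 CPM) and the highest for Bok (24.7 CPM). The remaining 2 were C1ql2 at 5.18 CPM in the cortex of KO mouse 12 and Wfs1 at 51.7 CPM in the cerebellum of WT mouse 16. For Wfs1, mouse 16 was also the highest WT hippocampal library (170 CPM) but the lowest WT cortical library (158 CPM). The cause of these values was not tested.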

How the results depend on the processing

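DESeq2 called 104 genes in hippocampus (edgeR 29), 25 in cortex (10) and 49 in cerebellum (14), and 1 member, Wfs1 in hippocampus. Requiring 10 counts in every library left 6 genes in cortex. Same-numbered KO and WT libraries did not deviate together (correlations of -0.23 to 0.01 in hippocampus, -0.17 to 0.03 in cortex and -0.24 to 0.06 in cerebellum), and a replicate block gave 19, 6 and 5 genes and 0 members. For the region comparisons and interactions, where the numbers mark 1 mouse, the block changed no member's call. Leaving out single hippocampal libraries gave 21 to 37 genes and 0 to 1 members (Wfs1, without WT mouse 16). Without the cortical library of mouse 14 there were 22 of 18130 genes, and without those of mice 14 and 3 26 of 18269. Without the cerebellar library of mouse 12 there were 62 of 17255, each time with 0 members. Of 460 recomputed member fold changes, 431 kept their direction and side of the threshold, 2 gained the call (Wfs1), 1 lost it (Tdo2 against cerebellum with no filter, 0.33) and 26 changed sign, none of them called. In hippocampus these were within the single omissions of C1ql2 (-0.0337 to 0.259), Fibcd1 (-0.0672 to 0.0468), Spink8 (-0.0148 to 0.0970) and Zbtb20 (-0.0204 to 0.0855). In cortex, omitting mouse 14 gave 0.0511 for Prox1 and -0.11 for Bok, and omitting both mice 0.18, -0.22 and, for Wfs1, 0.0273. In cerebellum Wfs1 became 0.0290. For hippocampus minus cortex, C1ql2 became -0.0416 and -0.11 and Bok 0.35 and 0.45 without 1 and both libraries, and Bok 0.0309 with the block. For hippocampus minus cerebellum, Bok became 0.20. Whole-tissue libraries limit what can be said of a field.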
